A study of Mus musculus with 11 samples.

Results

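Mbp, Pmp22, Prx, Mag, Cnp, Mal, Cldn19 and Gjb1, the genes of peripheral myelin studied here, were picked by name, with earlier results of these data known, and make up 8 of the 55401 genes listed for each library. Of the 8, 7 had enough counts to enter the test of 16817 genes, and Gjb1 did not. The libraries hold RNA of mouse trigeminal ganglion neurons that had taken up DiI, a fluorescent tracer carried back along axons, and that were sorted by that fluorescence from dissociated left and right ganglia. The MOC1 arm came from mice bearing tumours of MOC1, a mouse oral squamous carcinoma line, with 3 female and 3 male libraries. The sham arm came from controls that also received DiI, with 3 female and 2 male libraries. Strain, age, tumour size and time after inoculation are in none of the labels. The design text counts 6 MOC1 and 5 sham without saying whether a library pooled animals, so p-values measure the spread between these libraries.

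Myelin is the lipid-rich sheath that Schwann cells wrap around the larger axons of peripheral nerves, which lets action potentials jump from node to node. In its compact part, proteins such as Mbp and Pmp22 hold the wrapped membranes together, while channels of cytoplasm and the edges near the axon use adhesion, junction and scaffold proteins such as Mag, Cldn19, Gjb1 and Prx. In a sensory ganglion, myelinating Schwann cells lie along the axons inside the tissue, and satellite glia, a related cell that makes little or no myelin, cover the neuron bodies. Several of these genes, Pmp22, Cnp and Mal among them, are also transcribed outside myelinating glia.

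Across the libraries, reads assigned to genes ranged from 10757426 to 15739544 in MOC1 and from 15510643 to 16703797 in sham. Sham female 1 stood apart by its endothelial and mural cell genes, which summed to 1439 CPM (counts per 1000000 gene counts) against 176 to 395 CPM elsewhere. MOC1 female 3, MOC1 male 2 and MOC1 female 2 each lay farthest out on a leading principal component of log2 CPM. The 3 genes of this set with the lowest levels were at or near 0 in most libraries. Mag had 0 counts in 5 of 11 libraries, Cldn19 in 6 and Gjb1 in 7. Of oligodendrocyte markers, which would mark the myelinating cell of the brain, Mog, Opalin and Olig2 had 0 counts in every library and Hapln2 had 1 count in all. The sorted label is neuron, so the genes are named here as myelin genes and not as a cell type.

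Start-site sequences are shown for the 2 members with the clearest fall among those in the reference table (Cnp and Mal), for the scaffold gene Prx, and for Pmp22, whose level was alike in both arms. The windows are the 250 bases before each RefSeq start site on GRCm38.p6, written 5′ to 3′ on the gene's strand. Capitals mark matches to ACAAAG or ACAATG, core letters bound by SOX factors, and to GTGGGNG, letters bound by EGR factors, on either strand. SOX10 and EGR2 are the main activators of myelin genes in Schwann cells. The table matched 7 of the 8 members, and Mbp is named only. The Cnp window is chr11:100574689-100574938 on the plus strand, Mal chr2:127656696-127656945 on the minus strand and Prx chr7:27499074-27499323 on the plus strand. For Pmp22, which is transcribed from alternative promoters, 2 of its 4 windows are shown, chr11:63128732-63128981 and chr11:63131207-63131456, both on the plus strand.
Cnp: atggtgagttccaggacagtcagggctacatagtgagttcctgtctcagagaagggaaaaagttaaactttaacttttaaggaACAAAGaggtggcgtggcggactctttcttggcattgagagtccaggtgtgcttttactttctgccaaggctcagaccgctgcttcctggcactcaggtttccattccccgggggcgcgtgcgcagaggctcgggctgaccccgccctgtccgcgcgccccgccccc
Mal: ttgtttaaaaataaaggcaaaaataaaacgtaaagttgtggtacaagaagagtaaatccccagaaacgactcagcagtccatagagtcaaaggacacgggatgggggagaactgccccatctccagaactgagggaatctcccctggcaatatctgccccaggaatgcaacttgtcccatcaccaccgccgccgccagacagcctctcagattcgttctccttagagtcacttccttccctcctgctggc
Prx: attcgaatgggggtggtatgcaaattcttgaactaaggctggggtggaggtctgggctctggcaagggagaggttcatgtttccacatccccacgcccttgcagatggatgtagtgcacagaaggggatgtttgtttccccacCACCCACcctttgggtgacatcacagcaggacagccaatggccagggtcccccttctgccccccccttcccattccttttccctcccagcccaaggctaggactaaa
Pmp22 start 1: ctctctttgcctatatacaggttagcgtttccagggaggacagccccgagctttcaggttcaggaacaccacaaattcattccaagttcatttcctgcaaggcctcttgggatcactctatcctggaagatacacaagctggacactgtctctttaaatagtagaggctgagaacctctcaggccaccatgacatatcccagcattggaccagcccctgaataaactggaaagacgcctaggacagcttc
Pmp22 start 2: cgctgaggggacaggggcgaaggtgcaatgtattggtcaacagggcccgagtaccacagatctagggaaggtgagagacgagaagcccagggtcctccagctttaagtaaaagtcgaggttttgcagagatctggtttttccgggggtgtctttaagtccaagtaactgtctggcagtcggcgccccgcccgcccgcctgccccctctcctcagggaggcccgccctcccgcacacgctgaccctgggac
In these lines Cnp carries 1 ACAAAG, Prx carries 1 GTGGGNG on the opposite strand, and Mal and both Pmp22 windows carry none of the 3. With all start sites of the 7 matched members, ACAAAG stood in Cnp, Mag and Gjb1, GTGGGNG in Prx, Mag, Cldn19 and Gjb1, and ACAATG in Gjb1. Among all 32817 windows of the same length, 16.5% held ACAAAG, 10.7% ACAATG and 28.1% GTGGGNG. The general element CCAAT stood in 33.8% of all windows and in Pmp22, Prx, Mag and Gjb1, and TATAAA in 12.4% and in Gjb1. Some members have up to 4 windows, so these shares are no measure of enrichment, and a match is a string of letters and not a bound site. The matches printed for these members did not overlap each other.

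The myelin genes spanned levels that differ by orders of magnitude. Per length of transcript (reads per kilobase of merged exons, scaled as CPM; RPKM), the sham order was Pmp22 at 211 ± 13.6 (SD, n = 5), Mal at 66.6, Cnp at 35.6 ± 2.68, Mbp at 19.1 ± 2.08 and Prx at 1.43 ± 0.691. The sham ranges of these 5 genes were separate, from 189 to 225 RPKM for Pmp22, 47.6 to 116 for Mal, 32.3 to 38.1 for Cnp, 16.6 to 21.9 for Mbp and 0.730 to 2.33 for Prx. Gjb1 at 0.216 ± 0.250, Cldn19 at 0.204 ± 0.271 and Mag at 0.0602 ± 0.110 RPKM overlapped and have no order among them. In MOC1 the first 5 kept that order, with Pmp22 at 222 ± 15.7 RPKM (SD, n = 6), Mal at 34.7 ± 3.59, Cnp at 24.6 ± 1.97, Mbp at 12.8 ± 1.98 and Prx at 0.548 ± 0.129. The Mbp locus also makes the longer golli transcripts, whose exons are in its merged length. Counts per gene do not separate these transcripts, so its RPKM need not match that of the myelin transcript alone.

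Mbp, Cnp and Mal fell in MOC1, by 30.7% to 47.0% of the sham level, while Pmp22, the most abundant of the set, did not pass the test. Among the 7 members tested, these 3 were lower by edgeR's quasi-likelihood test at an adjusted p under 0.05. The background is 4.28% of all genes tested called lower (719) and 2.34% called higher (394). The median log2 change of the 7 members was -0.58, which is that of Mbp, and the median of all genes tested was -0.03. In 4 members (Mbp, Cnp, Mal and Prx) every MOC1 library lay below every sham library, a pattern seen in 4.18% of all genes tested. These are bulk libraries, so fewer cells of a type and less RNA per cell cannot be told apart.

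**Figure D1:**
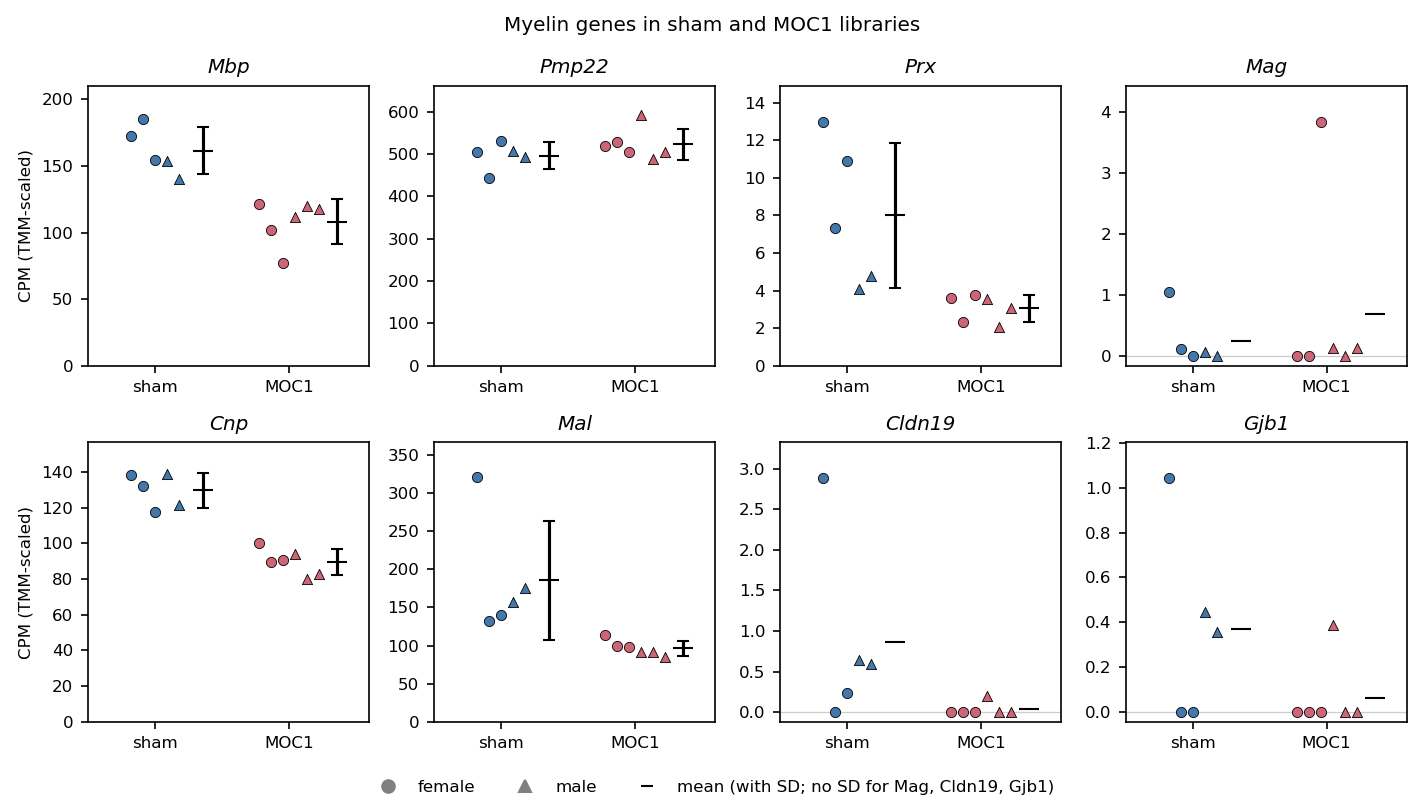
Level of each of the 8 myelin genes in every library, in TMM-scaled CPM (vertical axis, linear, one scale per gene), by arm and sex; points are libraries and dashes are arm means, with SD bars for the 5 abundant genes. All MOC1 points lie below all sham points for Mbp, Cnp, Mal and Prx, the arms overlap for Pmp22, and Mag, Cldn19 and Gjb1 sit at or near 0 in most libraries.

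Mbp on chromosome 18 encodes myelin basic protein, which seals the cytoplasmic faces of the membrane in compact myelin. In MOC1 its lowest library was at 77.2 CPM, its median at 114 and its highest at 121 CPM. The sham libraries were at 172, 186 and 155 CPM in females and 154 and 140 CPM in males. The lowest sham library, a male, was above the highest MOC1 library, and MOC1 female 3 was the lowest of all. Mbp averaged 108 ± 16.8 CPM over the MOC1 libraries (SD, n = 6) and 161 ± 17.6 CPM over the sham libraries (SD, n = 5), a log2 change of -0.58 ± 0.11 (SE, edgeR adjusted p = 0.00301), or 33.2% lower.

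Mal (chr2:127633226-127656695, GRCm38) encodes a small membrane-spanning protein of lipid-rich membrane domains that takes part in membrane sorting. Its MOC1 libraries had a lowest value of 84.8, a median of 94.9 and a highest value of 114 CPM. Sham females were at 321, 132 and 140 CPM and sham males at 156 and 176 CPM. The arms did not overlap, and sham female 1, the endothelial-rich library, was far above the other sham libraries. Against a sham mean of 185 ± 77.7 CPM (SD, n = 5), Mal averaged 96.4 ± 9.98 CPM with tumour (SD, n = 6), a log2 change of -0.92 ± 0.17 (SE, edgeR adjusted p = 0.00183), or 47.0% lower. Without sham female 1 the sham mean was 151 ± 19.3 CPM (SD, n = 4) and the log2 change -0.65, still past the threshold.

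Cnp (chr11:100574904-100591729) encodes a phosphodiesterase of cyclic nucleotides that keeps the cytoplasmic channels of myelin open. Its lowest MOC1 library was at 80.2 CPM, the median at 90.0 and the highest at 99.9 CPM. In sham, the female libraries were at 139, 132 and 118 CPM and the male libraries at 139 and 121 CPM. No library of either arm reached into the range of the other, and within each arm Cnp had a smaller spread for its mean than Mbp or Mal. Its sham mean was 130 ± 9.76 CPM (SD, n = 5) and its MOC1 mean 89.5 ± 7.17 CPM (SD, n = 6), a log2 change of -0.53 ± 0.09 (SE, edgeR adjusted p = 0.000623), or 30.7% lower.

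Pmp22 (chr11:63128982-63159547) encodes a tetraspan glycoprotein of compact myelin whose gene dosage matters in inherited demyelinating neuropathy. Its MOC1 libraries ran from 488 CPM through a median of 512 to 593 CPM. Sham females were at 504, 444 and 531 CPM and sham males at 508 and 492 CPM. The arms overlapped, with the highest library in MOC1 (male 1) and the lowest in sham (female 2). Its mean was 523 ± 37.0 CPM over 6 MOC1 libraries and 496 ± 32.0 CPM over 5 sham libraries, with a log2 change of 0.07 ± 0.07 (SE, edgeR adjusted p = 0.665). Counts per gene do not separate the transcripts of its alternative promoters.

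Prx (chr7:27497388-27520214) encodes periaxin, a scaffold that ties the outer Schwann cell membrane to the dystroglycan complex. It was at 3.62, 2.33 and 3.75 CPM in MOC1 females and 3.54, 2.04 and 3.06 CPM in MOC1 males. Sham females were at 13.0, 7.34 and 10.9 CPM and sham males at 4.07 and 4.76 CPM. Every MOC1 library was below every sham library, but the sham males lay close to the MOC1 range and the sham females did not. The log2 change was -1.22 ± 0.42 (SE), with an edgeR adjusted p of 0.0941, which misses the threshold. It passed with DESeq2, the tool named in the design text (adjusted p = 0.0166), where 5.4% of genes were called lower. It also passed in edgeR without the sex term (adjusted p = 0.0449), where 4.6% were.

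Mag (chr7:30899176-30914873) encodes a sialic acid binding adhesion protein of the inner Schwann cell membrane that faces the axon. It had 76 counts in all, 52 of them in MOC1 female 3 and 17 in sham female 1, with 0 to 2 in each of the other 9 libraries. A single library therefore held most of each arm's counts, and the edgeR adjusted p was 0.751. Cldn19 (chr4:119255414-119262438) encodes a claudin of the tight junctions of Schwann cells. It had 3 counts in MOC1 male 1 and 0 in the other 5 MOC1 libraries, and 47, 0 and 4 counts in sham females and 10 and 10 in sham males (edgeR adjusted p = 0.189). Its place among the tested genes rests on the sham libraries, of whose counts sham female 1 held 66.2%.

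Gjb1 (chrX:101376378-101385629) encodes a connexin that forms gap junctions between the layers of non-compact myelin. It had 6 counts in MOC1 male 1 and 0 in the other 5 MOC1 libraries, and 17, 0 and 0 counts in sham females and 7 and 6 in sham males. It was left out by the filter on low counts, and without that filter its edgeR adjusted p was 0.561. A count of 0 allows up to 3 counts, which is 0.177 to 0.278 CPM at these depths, for counting error only. The same libraries, sham female 1, sham male 1, sham male 3 and MOC1 male 1, held all counts of Gjb1 and all but 4 of the counts of Cldn19. For these 3 genes the depth does not settle a difference between the arms in either direction.

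Within females, Mbp had a log2 change of -0.77 ± 0.14 (SE, edgeR adjusted p = 0.00338), Mal of -0.93 ± 0.23 (adjusted p = 0.0290) and Cnp of -0.47 ± 0.12 (adjusted p = 0.0292). These 3 members were called lower, where 3.15% of all genes tested were. Within males Cnp was called lower (-0.60 ± 0.13, edgeR adjusted p = 0.0261), where 1.09% of all genes were. In males Mal had -0.90 ± 0.26 (edgeR adjusted p = 0.133) and Mbp -0.34 ± 0.15 (adjusted p = 0.577), neither of them past the threshold. Pmp22 had 0.07 ± 0.09 in females and 0.08 ± 0.11 in males and passed in neither. Prx had -1.68 ± 0.55 in females (edgeR adjusted p = 0.0962) and -0.62 ± 0.60 in males (adjusted p = 0.955), and its sham mean was 10.4 ± 2.85 CPM in females (SD, n = 3) and 4.41 ± 0.485 CPM in males (SD, n = 2).

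No member's change was shown to differ between the sexes. The edgeR interaction test across all genes (male minus female change) gave 0.43 ± 0.21 for Mbp, 1.07 ± 0.82 for Prx, -0.13 ± 0.18 for Cnp and 0.04 ± 0.35 for Mal (SE), each with an adjusted p of 1.00. Of all 16817 genes, 0 passed it with edgeR and 0 with DESeq2, and 708 had an unadjusted edgeR p under 0.05. The calls within a sex rest on few libraries. Within females, Cnp missed the threshold without MOC1 female 2, MOC1 female 3, sham female 1 or sham female 2. Mal missed it in females without MOC1 female 2, MOC1 female 3 or sham female 1, and without the last its log2 change there was -0.39 (edgeR adjusted p = 0.116). With DESeq2, Mal in females had an adjusted p of 0.0770 and Prx in females of 0.0112. Within males, Cnp missed the threshold without MOC1 male 2, MOC1 male 3, sham male 1 or sham male 3, and Mal passed it without sham female 1 (edgeR adjusted p = 0.000628).

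Most satellite glia markers were lower in MOC1, as Mbp, Cnp and Mal were and Pmp22 was not. Of 16 satellite glia markers, 13 fell, with a median log2 change of -1.07, where 4.28% of all genes tested were called lower. The 16 summed to 3556 to 5968 CPM in MOC1 and 8917 to 10814 CPM in sham, 2 ranges that do not meet. Of 20 pan-neuronal genes, 11 rose, where 2.34% of all genes tested were called higher. The 20 summed to 15190 to 17148 CPM in MOC1 and 11813 to 14252 CPM in sham. The part of either cell share in the myelin gene changes was not tested. Expressed as log2 of each library over the sham mean, the satellite sum in MOC1 lay between -1.45 and -0.70, where Mbp lay between -1.06 and -0.41, Cnp between -0.69 and -0.38, Mal between -1.13 and -0.70 and Pmp22 between -0.02 and 0.26. MOC1 female 3 held the lowest satellite sum and the lowest Mbp value, but not the lowest Cnp, Mal or Prx value. MOC1 female 1 held the highest satellite sum of its arm (-0.70) and its highest Mbp (-0.41), Cnp (-0.38) and Mal (-0.70) values, but not its highest Prx value. Sham female 2 held the highest satellite sum of its arm (0.16) and its highest Mbp value (0.20), but its lowest Mal value (-0.48). Sham female 1 held the lowest satellite sum of its arm (-0.12) but its highest Mal (0.79) and Prx (0.70) values.

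**Figure D2:**
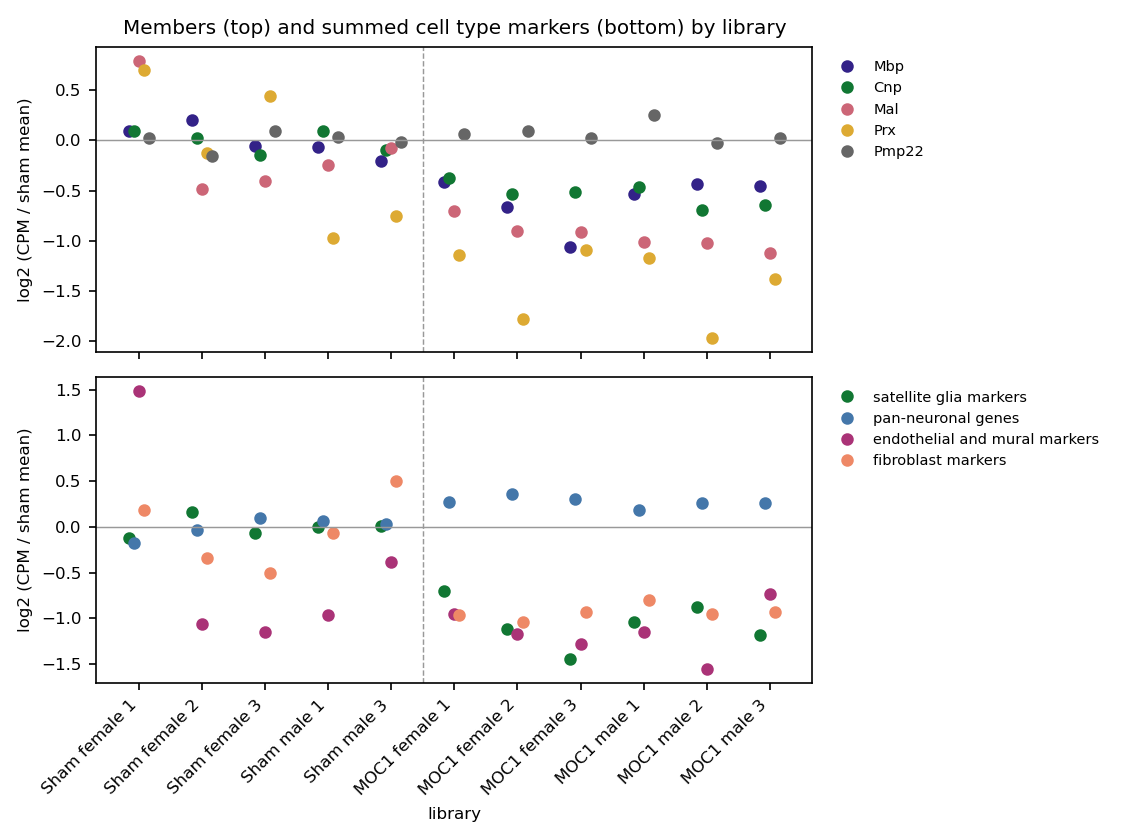
Log2 of each library's CPM over the sham mean (vertical axes) by library (horizontal axis), with Mbp, Cnp, Mal, Prx and Pmp22 in the upper panel and the summed satellite glia, pan-neuronal, endothelial and mural, and fibroblast lists in the lower panel. In the 6 MOC1 libraries the satellite sum lies between -1.45 and -0.70 and Pmp22 between -0.02 and 0.26, and in sham female 1 the endothelial sum and Mal stand high.

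Scaling to a marker list moves all genes together, so the members are given beside the median of all genes on each scale. With the satellite glia markers as the scale, Cnp was higher by 0.54 on the log2 scale (edgeR adjusted p = 0.00373), Mbp by 0.47 (adjusted p = 0.00824) and Pmp22 by 1.15 (adjusted p = 1.04e-06), where the median of all genes shifted to 1.05 and 59.2% of them were called higher. The values of Cnp and Mbp are below that shifted median, as they were with TMM scaling, and that of Pmp22 is above it. On that scale Mal was at 0.13 (edgeR adjusted p = 0.611) and Prx at -0.15 (adjusted p = 0.833), also below the median and neither past the threshold. With the pan-neuronal genes as the scale, Mbp was at -0.87, Cnp at -0.81, Mal at -1.22 and Prx at -1.51, all 4 called lower (Prx edgeR adjusted p = 0.0249), where the median of all genes was -0.31 and 12.9% were called lower. Pmp22 was then at -0.20 (edgeR adjusted p = 0.126).

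**Figure D3:**
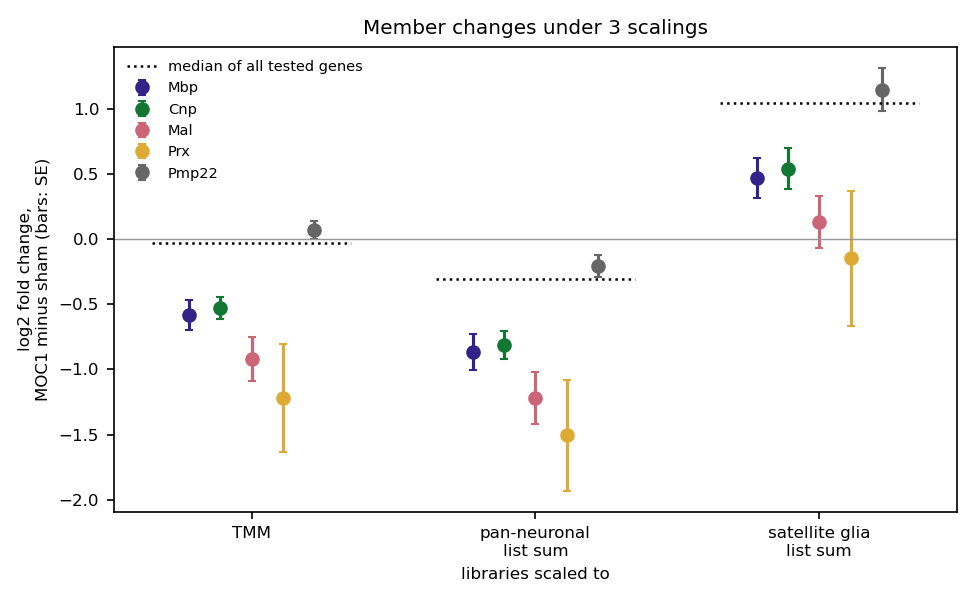
Log2 change of MOC1 against sham (vertical axis) with its SE for Mbp, Cnp, Mal, Prx and Pmp22 with TMM scaling and with scaling to the summed pan-neuronal genes or the summed satellite glia markers (horizontal axis); dotted lines are the median of all genes tested. Mbp, Cnp, Mal and Prx lie below the dotted line on all 3 scales, though Mbp and Cnp are at 0.47 and 0.54 with satellite glia scaling, and Pmp22 lies near the dotted line each time. Each scale moves all genes and their median together, so these places are not separate results.

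The other cell types that a sorted ganglion fraction could carry were measured by marker lists. Of 8 fibroblast markers 7 were tested and 1 fell, where 4.28% of all genes tested were called lower. The 8 summed to 61.3 to 72.4 CPM in MOC1 and 88.9 to 178 CPM in sham. Endothelial and mural markers summed to 176 to 310 CPM in MOC1 and 232 to 1439 CPM in sham, where sham female 1 held the 1439 and the other 4 were at 232 to 395 CPM. Of these 10 markers 2 fell, beside the same 4.28% of all genes, and 8 had an unadjusted edgeR p under 0.05. Their median log2 change was -1.42, and their part in the members' changes was not tested. Macrophage markers summed to 7.61 to 22.3 CPM in MOC1 and 10.9 to 30.5 CPM in sham, and of 8 none passed by edgeR or by DESeq2, with 0 at an unadjusted p under 0.05. Of 11 oligodendrocyte markers 4 were tested and none passed by either tool, with 1 at an unadjusted edgeR p under 0.05. Their sum, 165 to 212 CPM in MOC1 and 159 to 195 CPM in sham, is nearly all Tspan2, which neurons also express. Without sham female 1, MOC1 female 3 and MOC1 male 2 together, Mbp (-0.48), Cnp (-0.47) and Mal (-0.63) were still called lower, beside 4.9% of all genes tested. The same 3 were called when MOC1 female 2 was left out as well, at -0.40, -0.45 and -0.64 (4.25% of all genes), and Prx was then at -0.76 (edgeR adjusted p = 0.413).

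Of 8 other genes of compact myelin and myelin lipids, 7 were tested and 1, Aspa, fell, where 4.28% of all genes were called lower. The median log2 change was -1.24, which is that of Aspa. Aspa, which frees acetate for lipid synthesis, fell by 1.24 ± 0.20 on the log2 scale (SE, edgeR adjusted p = 0.000623). In edgeR the enzymes of galactolipid synthesis did not pass, with Ugt8a at -1.69 ± 0.53 (edgeR adjusted p = 0.0671), Gal3st1 at -1.18 ± 0.41 (adjusted p = 0.0993) and the ceramide synthase Cers2 at -0.21 ± 0.08 (adjusted p = 0.181). DESeq2 called 3 of the list lower, where 5.4% of all genes were, with Ugt8a (adjusted p = 0.0134) and Gal3st1 (adjusted p = 0.0179) among them. In edgeR without sham female 1, MOC1 female 3 and MOC1 male 2, Ugt8a and Gal3st1 were called (adjusted p = 0.000318 and 0.0391), beside 4.9% of all genes called lower. Pmp2, a fatty acid binding protein of peripheral myelin, had 0 counts in every library.

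Among 16 genes of non-compact myelin, adhesion and the Schwann cell surface, 8 fell and 8 did not pass, with a median log2 change of -0.73. Of all genes tested, 4.28% were called lower. The dystroglycan gene Dag1, whose protein complex binds periaxin, fell by 0.92 ± 0.10 on the log2 scale (edgeR adjusted p = 1.22e-05). The laminin chains of the basal lamina, Lamc1 (-1.06 ± 0.14) and Lama2 (-0.82 ± 0.15), fell too, as did Mpzl1, a cell surface glycoprotein (-0.85 ± 0.16). Cd9 (0.07 ± 0.07), Cdh1 (0.08 ± 0.07) and Utrn (-0.04 ± 0.09), the most abundant of the genes that did not pass, were near 0 as Pmp22 was.

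Of 17 transcription and signalling genes that regulate myelination, 9 fell, 1 (Adam22, a neuronal receptor for Lgi proteins) rose and 7 did not pass, with a median of -0.83. Of all genes tested, 4.28% were called lower and 2.34% higher. Lgi4, a secreted Schwann cell ligand, fell by 1.18 ± 0.12 on the log2 scale (edgeR adjusted p = 5.94e-06), and Adgrg6, the adhesion receptor that Schwann cells need to start myelination, fell by 1.06 ± 0.13. The RNA-binding Qk (-1.02 ± 0.13) and the hedgehog ligand Dhh (-1.20 ± 0.16) fell as well. The median log2 change of the satellite glia markers was -1.07. The part of satellite glia RNA in the falls of the myelin and Schwann cell lists was not tested. The axonal ligand Nrg1 was at 0.28 ± 0.13 (edgeR adjusted p = 0.255) and Tead1 at -0.45 ± 0.19 (adjusted p = 0.183). Sox10 was called lower, at -0.70 ± 0.17 (SE, edgeR adjusted p = 0.0176), with overlap of the arms. Egr2, the transcription factor that switches on myelin genes, averaged 39.7 ± 5.95 CPM over sham and 14.6 ± 9.38 CPM over MOC1 libraries, with no overlap of the arms. The lowest MOC1 library for Egr2 was at 0.147 CPM, against an MOC1 median of 16.8 CPM. Its adjusted p was 0.0745 with edgeR and 0.205 with DESeq2. With 1 library left out the edgeR adjusted p ran from 0.00334 to 0.184, and it passed in 2 of 11 fits, without MOC1 female 3 (adjusted p = 0.00334) and without MOC1 female 1 (adjusted p = 0.0262). Egr2 also passed with voom (adjusted p = 0.00981) and in edgeR with a replicate block (0.0378), pan-neuronal scaling (0.0259) or no low-count filter (6.77e-13). In edgeR it missed the threshold with total-count scaling (0.0766), DESeq2 size factors (0.0743) or satellite glia scaling (0.205). It also missed with a filter of 1 CPM in 5 libraries (0.0859) or no sex term (0.0941). Without sham female 1, MOC1 female 3 and MOC1 male 2 it passed (0.000761).

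The genes of non-myelinating, immature or repair Schwann cells did not share 1 direction. Of 15 such genes 13 were tested, 4 fell, 2 (L1cam and Scn7a) rose, and the median was -0.04. Of all genes tested, 4.28% were called lower and 2.34% higher. L1cam was at 0.22 ± 0.06 and Scn7a at 0.35 ± 0.09, where the median of the pan-neuronal genes was 0.28. The part of neuronal RNA in these 2 rises was not tested. Ncam1 (-0.61 ± 0.07), Jun (-1.06 ± 0.14), Cdh19 (-0.93 ± 0.14) and Sox2 (-0.87 ± 0.18) fell, of which Jun is a driver of the repair state after nerve injury and Sox2 marks immature Schwann cells. Which cell type's RNA fell for these 4 genes was not tested either. Ngfr (0.31 ± 0.10, edgeR adjusted p = 0.0849), Gap43 (0.11 ± 0.10, adjusted p = 0.666) and Cadm2 (0.32 ± 0.12, adjusted p = 0.113) did not pass in edgeR, and sensory neurons express all 3. DESeq2 called 4 of the list lower and 3 higher, with Ngfr among the higher (adjusted p = 0.0276). Of all 16817 genes DESeq2 called 908 lower (5.4%) and 648 higher. Cdh19 and Sox10 are also in the satellite glia list, and Gap43 in the pan-neuronal list.

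**Figure D4:**
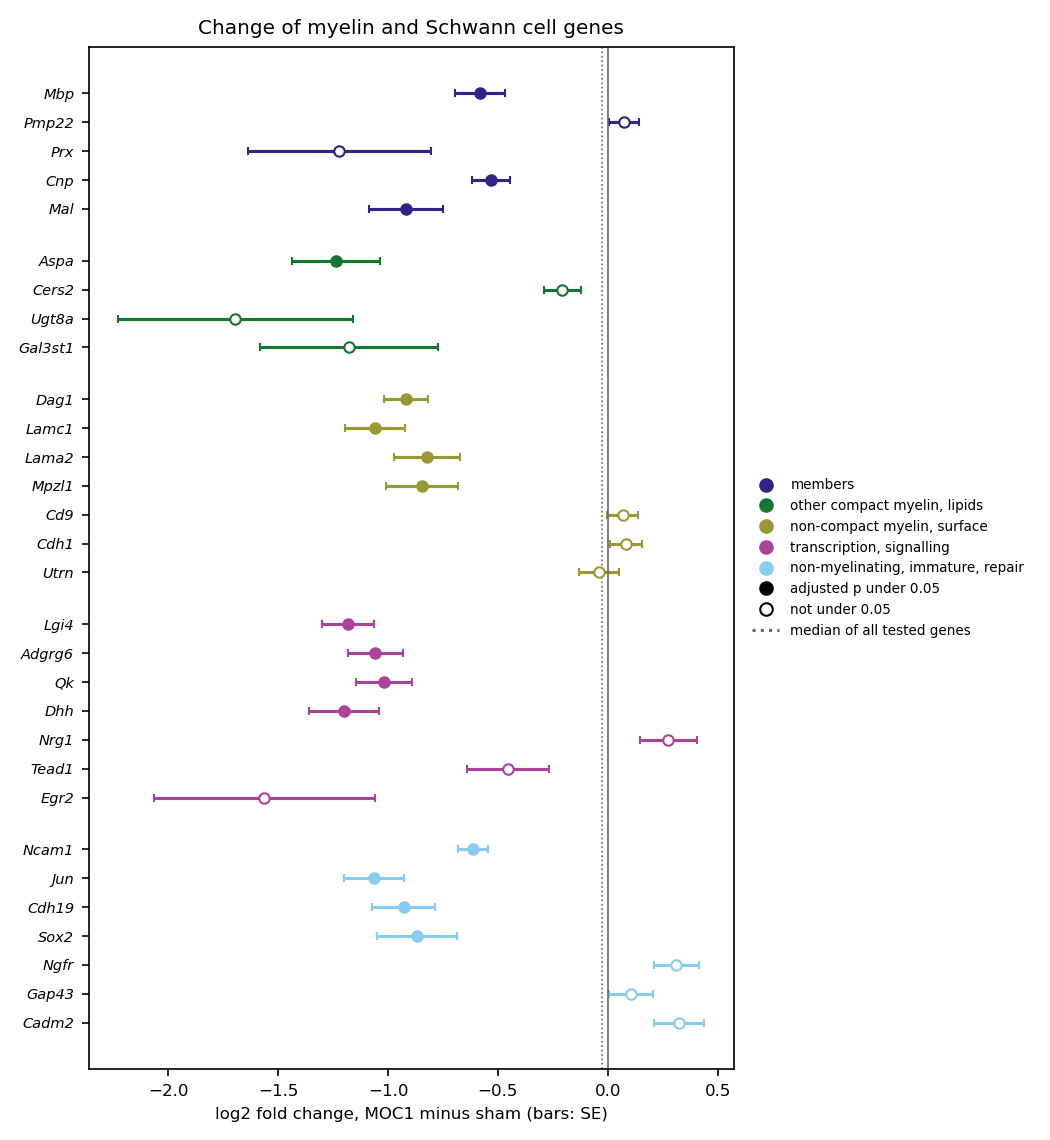
Log2 change of MOC1 against sham (horizontal axis, TMM scaling) with its SE for the 5 abundant members and the genes named from 4 other lists, 1 row per gene, filled where edgeR's adjusted p is under 0.05; the dotted line is the median of all genes tested, -0.03. Mbp, Cnp and Mal are filled at -0.58, -0.53 and -0.92, with Aspa and Lgi4 farther left, and Pmp22, Cd9, Cdh1 and Utrn lie near 0.

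Within an arm, the members did not vary as 1 block. After each arm's mean was subtracted, Cldn19 and Gjb1 had the highest Pearson r of the 28 member pairs over the 11 libraries, at 0.916 (0.888 without sham female 1), on few counts. Mal and Cldn19 had 0.792, which was 0.436 without sham female 1, and Prx and Mal had 0.422, which turned to -0.272. Cnp and Mal had 0.459 (0.412 without that library), while Mbp had 0.0931 with Cnp and 0.0244 with Mal. The genes most like the mean of the 8 members by the same measure, among 10943 genes with at least 5 CPM, were Esyt2 (r = 0.949), Slfn5 (0.938), Ptprg (0.917), Tgm2 (0.917), Vwf (0.909) and Adgrf5 (0.906). All 6 were highest in sham female 1, Vwf at 113 CPM there against 7.29 to 33.8 CPM elsewhere, and without it their r was 0.664 to 0.854. The mean of the 8 members weighs each alike, so Mag, Cldn19 and Gjb1 enter it in full despite their few counts. MOC1 female 3, with 52 Mag counts and the lowest Mbp, lay 0.38 above its arm in that mean. All points share depth and composition of the same 11 libraries, and these r values are given as a description.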

How the data were processed

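Poly(A) RNA-seq counts were taken from 11 libraries of DiI-sorted trigeminal neurons, 6 MOC1 and 5 sham. The deposited values are the authors' raw, strand-specific counts per gene, per the file headers and the labels. Tools were Trimmomatic 0.35 for trimming, STAR 2.7.1a for alignment to GRCm38 and RSEM, per the submitters' processing notes and the series' design text. The labels and file headers do not state the annotation release. The 4 rows that name no gene (18.7% to 21.5% of counts) were left out. The main test was edgeR 4.0.16 (R 4.3.3): filterByExpr, TMM scaling, a quasi-likelihood F test with sex as a term, Benjamini-Hochberg adjustment over 16817 genes and a threshold of 0.05. A fit of 4 groups gave the comparisons within each sex and their difference. SE is the log2 change over the square root of F. RPKM used merged exons of GENCODE M21, a release whose model of Prx differs from the files'. Any 2 libraries of a group differed beyond sampling noise. Alternatives were DESeq2 1.42.0, limma-voom 3.58.1, other scalings and filters, a replicate block and libraries left out. Scripts were tested on simulated data. The 8 genes and all lists were chosen with earlier results of these data known, and some genes of a list are not reported here. Named were all 8 members and, per list of myelin and Schwann genes, up to 4 called genes of smallest p and 3 uncalled of highest level; other names were chosen after their values were seen.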

Additional observations from a re-analysis of the deposited data

Results flagged for a closer look

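In each arm the highest or lowest library of every member was compared with the spread of the others by Dixon's test. For values with a normal spread, chance alone flags about 1 in 20 groups. Of 16 arms (8 members in MOC1 and in sham) 6 had a library far from the rest, and each time it was the highest. Sham female 1 was that library for Mal (321 CPM), Cldn19 (2.88 CPM) and Mag (1.04 CPM). MOC1 female 3 was it for Mag (3.82 CPM), and MOC1 male 1 for Cldn19 (0.193 CPM) and Gjb1 (0.386 CPM). Apart from Mal, these genes had 0 counts in 5 to 7 of the 11 libraries, so the rate of 1 in 20 does not hold for them. For Cldn19 and Gjb1 in MOC1 all other libraries had 0 counts, so any count there would be flagged.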

How the results depend on the processing

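Mbp, Cnp and Mal were called lower in all 11 fits that left out 1 library (adjusted p of 0.00203 to 0.0141 for Mbp, 0.000600 to 0.00444 for Cnp and 0.000422 to 0.00935 for Mal), and 816 to 1129 genes were called, against 1113 with all libraries. Scaling to a marker list moved all genes together: 2203 genes were called with pan-neuronal scaling and 10022 with satellite glia scaling, where the median of all genes moved from -0.03 to 1.05 and 0 members were lower and 3 higher. Log2 changes below 0 with TMM and above 0 on that shifted scale, each below its median, were Mbp 0.47, Cnp 0.54, Mal 0.13, Cers2 0.87, Dag1 0.15, Lama2 0.22, Mpzl1 0.22, Utrn 1.04, Qk 0.021, Tead1 0.58, Ncam1 0.46, Cdh19 0.11 and Sox2 0.22. Called lower with TMM, Aspa (-0.22), Lamc1 (-0.0088), Lgi4 (-0.13), Adgrg6 (-0.018), Dhh (-0.15) and Jun (-0.0033) stayed below 0 there but were no longer called. With pan-neuronal scaling (median -0.31) those that turned sign were Pmp22 -0.20, Cd9 -0.21, Cdh1 -0.20, Nrg1 -0.0030 and Gap43 -0.16. With voom, Mag was at -0.12 and Utrn at 0.022, and Utrn was at 0.10 and 0.077 without the 3 and the 4 libraries that stand apart, 2 removals chosen after seeing the data, and at -0.095 to 0.057 with 1 library left out. DESeq2 called 1556 genes in all, 1271 within females (edgeR 753) and 375 within males (edgeR 211). With 1 library left out, 345 to 876 genes were called within females, with 345 without MOC1 female 2, 448 without MOC1 female 3 and 411 without sham female 2. Within males 62 to 340 were called, with 340 without MOC1 female 3, 99 without MOC1 male 1, 81 without MOC1 male 3, 91 without sham male 1 and 62 without sham male 3. The sex difference gave 0 to 2, with 2 without MOC1 female 1 or sham female 1. Over the same fits Pmp22 ran from -0.00058 to 0.13 within females and -0.0091 to 0.14 within males, and the sex difference from -0.078 to 0.082 for Pmp22, -0.50 to 0.26 for Mal and -1.32 to 1.82 for Mag. With the replicate block, 1036 genes were called and the same 3 members were lower (Mbp -0.62, Cnp -0.50, Mal -0.85). Same-numbered libraries of a sex deviated together with r of -0.04 to 0.04, so the numbers were not read as pairs. DESeq2 gave no adjusted p for Mag and Cldn19. The cause of these shifts was not tested. Depth limits Mag, Cldn19 and Gjb1, at 0 counts in 5 to 7 libraries each.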
